A study of Mus musculus with 8 samples.

Results

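Scavenger and mannose receptors are cell-surface proteins with which macrophages bind and take up modified lipoproteins, sugars, microbes, dead cells and haemoglobin complexes. The 6 genes described here encode Marco, Msr1, Cd36, Mrc1, Scarb1 and Cd163, chosen by name out of 32249 genes listed in 8 single-cell RNA libraries of mouse bone marrow macrophages. They were chosen with the difference between the study's groups in view, so values of that contrast are given below as a description and without a test.

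The 4 CYR61 libraries came from hind limb marrow of C57Bl/6J mice, grown for 3 days in M-CSF, a factor that drives macrophage formation, and then exposed for 24 h to 4 µg/mL CYR61. CYR61 is an integrin-binding protein of the extracellular matrix, also called CCN1. The 4 control libraries had the same culture without it. All mice were labelled male and 10 weeks old. RNA was captured with HIVE, a microwell platform that gives each cell a barcode and each molecule a tag (UMI), and each library is 1 labelled replicate. Nothing in the labels ties a replicate to its own animal or culture, so p-values measure only the spread between libraries, which may be technical.

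Each table listed 5000 barcodes, and total UMIs per library ranged from 1379637 to 16318946. Of 40000 barcodes, 12848 had at least 300 genes and at most 20% mitochondrial UMIs. Barcodes recurred between libraries of the same date stamp, and each was kept only where it had most UMIs, its home library, which left 7139 CYR61 cells and 2057 control cells. Among these 9196 home cells, 2791 barcodes recurred elsewhere within their date. In control replicate 2, barcodes with more UMIs in another library held 76.1% of the UMIs of its kept barcodes. The labels also did not match the sex-linked genes: CYR61 replicates 1 and 2 and control replicates 2 and 3 had 1152 to 1249 CPM (UMIs of a gene scaled to a common library total) of Xist, the RNA of the inactive X chromosome, and the others had at most 1.16 CPM of Xist with 323 to 399 CPM of Y-linked genes. Replicates 1 and 2 of either group carried the earlier date stamp and replicates 3 and 4 the later.

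The macrophage label held against its markers. In all 8 libraries Lyz2 was at 5880 to 12256 CPM and Cd68 at 631 to 1230 CPM. Adgre1 was at 452 to 656 CPM and Csf1r at 319 to 529 CPM. Of the 9196 cells, 9080 fell in macrophage- and monocyte-like clusters. A further 104 cells were neutrophil-like and 12 were megakaryocyte-like or platelet-like. The macrophage- and monocyte-like name was the default, given where at least 3 of its markers were detected and no other type was named. The neutrophil-like cluster also had 8 of those markers detected, so the count of 9080 is not evidence for the label. The summed levels of the 12 neutrophil markers ranged from 661 to 3657 CPM in CYR61 libraries and from 649 to 2000 CPM in control libraries. The 7 dendritic cell markers summed to 66.1 to 134 CPM in CYR61 libraries and 154 to 239 CPM in control libraries, with Ccr7 at 0 in all. The 7 B cell markers summed to 2.61 to 6.57 CPM in CYR61 libraries and 8.97 to 36.8 CPM in control libraries, with Igkc and Vpreb3 among those at 0 in all. With macrophage- and monocyte-like cells alone, the log2 fold change of CYR61 over control was 3.89 for Marco, beside 3.86 with all home cells. It was 0.17 beside 0.12 for Msr1, -0.47 beside -0.51 for Cd36, 0.08 beside 0.05 for Mrc1 and -0.37 beside -0.39 for Scarb1. No cluster was named dendritic or B cell, and the part of such cells in the results below was not tested.

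As background, Marco and Msr1 are class A scavenger receptors, trimers that bind polyanionic ligands such as bacterial surfaces, and Msr1 also takes up acetylated and oxidised low-density lipoprotein. Cd36 and Scarb1 are class B receptors: Cd36 takes up long-chain fatty acids and oxidised lipoprotein, and Scarb1 exchanges cholesterol with high-density lipoprotein. Mrc1 is the macrophage mannose receptor, a C-type lectin that recycles between surface and endosome, and Cd163 takes up complexes of haptoglobin and haemoglobin.

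In the GENCODE vM21 annotation on mm10, the genes lie on 5 chromosomes. Marco is at chr1:120474538-120505024 on the minus strand, Msr1 at chr8:39581685-39642673 on the minus strand and Mrc1 at chr2:14229392-14332057 on the plus strand. Cd36, at chr5:17781690-17888801, and Scarb1, at chr5:125277087-125341094, both on the minus strand, share a chromosome. Cd163 is at chr6:124304656-124330527 on the plus strand. The 250 bases before the RefSeq start on GRCm38.p6 are shown for Marco, whose levels separated the groups, and for Mrc1 and Cd36, which a fit across all genes called between libraries with Xist and with Y-linked RNA: Marco (chr1:120505025-120505274, minus strand), Mrc1 (chr2:14229164-14229413, plus strand) and Cd36 (chr5:17835897-17836146, minus strand, within the GENCODE span of the gene). Capitals mark matches to letters used by PU.1, the main myeloid lineage factor (GAGGAAG), and by NF-kB, an inflammatory factor named in the series title (GGNNTTTCC), read on either strand.
Marco: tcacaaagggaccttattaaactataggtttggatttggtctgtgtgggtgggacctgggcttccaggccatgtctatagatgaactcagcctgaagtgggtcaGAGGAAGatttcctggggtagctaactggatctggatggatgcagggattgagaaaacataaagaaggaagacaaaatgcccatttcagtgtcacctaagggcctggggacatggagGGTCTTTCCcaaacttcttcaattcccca
Mrc1: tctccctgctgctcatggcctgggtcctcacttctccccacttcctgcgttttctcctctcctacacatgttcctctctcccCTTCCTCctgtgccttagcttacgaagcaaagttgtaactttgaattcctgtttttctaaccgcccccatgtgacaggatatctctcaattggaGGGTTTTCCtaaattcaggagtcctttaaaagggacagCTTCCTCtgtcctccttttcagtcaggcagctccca
Cd36: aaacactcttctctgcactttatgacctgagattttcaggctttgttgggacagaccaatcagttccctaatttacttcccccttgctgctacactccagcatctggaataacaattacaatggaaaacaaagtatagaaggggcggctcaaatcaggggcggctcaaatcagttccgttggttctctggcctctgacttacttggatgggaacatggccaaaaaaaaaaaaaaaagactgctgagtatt
The Marco window held 1 match to each, with the NF-kB letters 29 to 21 bases before the start. The Mrc1 window held 2 matches to the PU.1 letters and 1 to the NF-kB letters, 74 to 66 bases before the start. The Cd36 window held none to either. Of 32851 RefSeq windows of the same length, 4.93% held the NF-kB letters and 10.6% the PU.1 letters. Letters of an interferon response element (AAANNGAAA), AP-1 (TGANTCA) and STAT factors (TTCNNNGAA) occurred in none of the 3 windows shown and in 9.37%, 6.75% and 7.02% of all windows, and no matches overlapped. The NF-kB and interferon letters were first searched with a further G in front and were shortened after that search. With that G, 1.41% and 2.98% of all windows held them, the Marco match remained and Mrc1 had no NF-kB match, so the Mrc1 match depends on the letters chosen. These are matches of letters and not measured binding sites.

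Of the 5 receptors that passed the filter on low counts, Marco had the largest log2 fold change. It had 28.8, 30.2, 9.57 and 75.4 CPM in CYR61 replicates 1 to 4, against 0.582, 6.79, 4.75 and 0 CPM in control replicates 1 to 4. Every CYR61 library was above every control library, the lowest being CYR61 replicate 3. The counts behind these levels were 228, 421, 11 and 282 UMIs in the CYR61 libraries and 2, 8, 4 and 0 UMIs in the control libraries. CYR61 replicate 3 had 11 of 1149043 UMIs and control replicate 2 had 8 of 1177733, a margin within counting error. The 0 in control replicate 4 allows up to 2.99 CPM. Means were 36.0 ± 27.9 CPM with CYR61 and 3.03 ± 3.28 CPM without (SD, n = 4 each), a ratio of 11.9. In the edgeR fit over all genes the log2 fold change was 3.86 with SE 0.82 and a 95% interval of 2.09 to 5.63. On pooled UMIs the ratio was 16.3, with a counting interval of 9.64 to 29.9. That interval covers counting error only and leaves out the spread between cells and between libraries. In such library sums, fewer cells with the RNA and less RNA per cell cannot be told apart.

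Marco was a gene of few cells. At least 1 Marco UMI was found in 4.31%, 5.69%, 1.60% and 6.95% of cells in CYR61 replicates 1 to 4, against 0.189%, 0.952%, 1.36% and 0% in control replicates 1 to 4. The 0 of 390 cells in control replicate 4 allows a share of up to 0.769%. Counting intervals overlapped between CYR61 replicate 3 (0.815% to 3.13%) and control replicate 3 (0.530% to 3.45%). After each cell was thinned to 500 UMIs, which left out 240 CYR61 cells and 108 control cells, the shares were 1.58%, 1.61%, 0.235% and 2.45% in CYR61 libraries and 0%, 0%, 0.353% and 0% in control libraries. Thinned values of CYR61 replicate 3 and control replicate 3 overlapped, and each rested on 1 detecting cell. None of the 104 neutrophil-like cells had a Marco UMI, which allows a share of up to 2.88%. Their median depth was 1438 UMIs, beside 1183 UMIs in macrophage-like cells. After thinning to 500 UMIs, 1.35% of macrophage-like cells had a Marco UMI. The 95 thinned neutrophil-like cells are too few to read absence from them.

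Single cells held much of the Marco signal. In CYR61 replicate 4, 1 cell had 132 of the 282 Marco UMIs, and the library had 40.5 CPM without it. The highest cells in CYR61 replicates 1 to 3 had 32, 40 and 4 Marco UMIs, while those of control replicates 1 to 3 had 1, 6 and 1. Without the highest cell of each library the log2 fold change was 4.58. That step took 1 of 2, 6 of 8 and 1 of 4 Marco UMIs from control replicates 1 to 3. From CYR61 replicates 1 to 4 it took 32 of 228, 40 of 421, 4 of 11 and 132 of 282. The control counts left are too few for this value to show whether the group difference rests on single cells. Among barcodes under the minimum of 300 genes, there were 18, 1, 3 and 78 Marco UMIs in CYR61 replicates 1 to 4 and 0, 5, 0 and 0 in control replicates 1 to 4. These are 26.3, 5.94, 5.31 and 79.2 CPM in CYR61 libraries and 0, 14.5, 0 and 0 CPM in control libraries. The values at 0 allow up to 5.25, 13.7 and 5.70 CPM in control replicates 1, 3 and 4, so among these barcodes the groups overlapped.

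The Marco values depended on how shared barcodes were treated. With all 12848 kept barcodes, Marco was at 26.7, 29.2, 9.46 and 74.7 CPM in CYR61 libraries, against 0.574, 23.4, 20.7 and 2.89 CPM in control libraries. Control replicates 2 and 3 then lay above CYR61 replicate 3, and the log2 fold change was 1.51. With barcodes listed in no other library of the date, Marco was at 38.4, 34.2, 8.82 and 66.0 CPM in CYR61 libraries and 0.876, 0, 4.79 and 0 CPM in control libraries. CYR61 replicate 3 then rested on 3 UMIs and control replicate 3 on 2. The values at 0 allow up to 11.5 and 17.0 CPM in control replicates 2 and 4, above CYR61 replicate 3, so a separation of the groups is not shown in these barcodes.

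**Figure D1:**
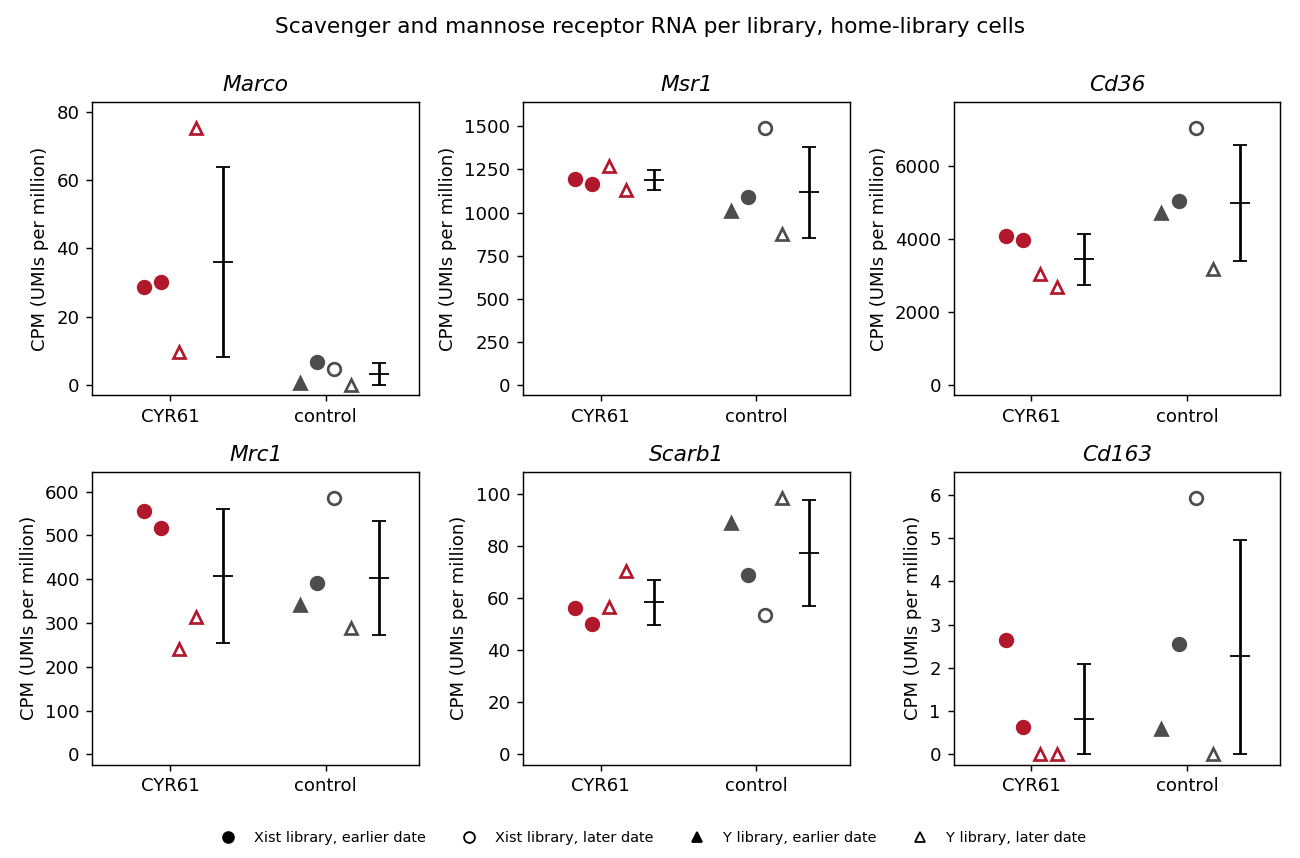
CPM of the 6 receptors in home-library cells, 1 point per library, with CYR61 left and control right in each panel; bars show mean ± SD (n = 4, cut at 0), circles are libraries with Xist, triangles libraries with Y-linked RNA, filled points the earlier date stamp. Marco values did not overlap, from 9.57 CPM up with CYR61 and up to 6.79 CPM in controls, resting on 11 and 8 UMIs. The other panels overlapped.

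Msr1, the other class A receptor, did not separate the groups. It had 1192, 1163, 1271 and 1131 CPM in CYR61 replicates 1 to 4, against 1010, 1091, 1492 and 875 CPM in control replicates 1 to 4. The highest and the lowest library were both controls, so the groups overlapped. The log2 fold change was 0.12 with SE 0.19 and an interval of -0.29 to 0.52. In cells thinned to 500 UMIs, 33.3% to 42.0% of cells in CYR61 libraries and 28.9% to 50.2% in control libraries had an Msr1 UMI, and unthinned shares were 54.3% to 74.0% with CYR61 and 55.6% to 67.0% without. Pooled over libraries, 36.2% of thinned macrophage-like cells and 15.8% of thinned neutrophil-like cells had an Msr1 UMI.

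Cd36 was found in most cells of every library. It had 4074, 3961, 3024 and 2669 CPM in CYR61 replicates 1 to 4, against 4708, 5022, 7040 and 3165 CPM in control replicates 1 to 4. Control replicate 4 lay among the CYR61 libraries and the other controls above all of them. The log2 fold change was -0.51 with SE 0.24 and an interval of -1.03 to 0.01. Without control replicate 3 it was -0.25, and it was -0.15 within the earlier and -0.87 within the later date stamp. With barcodes listed in no other library of the date, Cd36 was at 3631, 3687, 3230 and 2219 CPM in CYR61 libraries. Control libraries were at 4879, 5502, 7577 and 3815 CPM, the last from 675 UMIs in 179 cells, and the log2 fold change was -0.70. These sets lay apart by a narrow margin, 3687 against 3815 CPM. The share of all genes lying apart in these barcodes was not computed, so nothing is read from this. Thinned shares were 64.9% to 81.3% with CYR61 and 72.1% to 94.0% without, and unthinned shares were 80.2% to 96.7% with CYR61 and 90.0% to 98.6% without. The share in thinned neutrophil-like cells was 42.1%, against 79.4% in macrophage-like cells.

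Scarb1, the second class B receptor, was sparse. It had 56.4, 50.2, 56.6 and 70.6 CPM in CYR61 replicates 1 to 4, against 88.8, 68.8, 53.4 and 98.7 CPM in control replicates 1 to 4. Control replicates 2 and 3 lay among the CYR61 libraries, and the other controls above all of them. The log2 fold change was -0.39 with SE 0.23 and an interval of -0.88 to 0.11, and without control replicate 4 it was -0.18. Scarb1 was found in 2.11% to 2.96% of thinned cells with CYR61 and 2.83% to 5.42% without, and in 8.82% to 14.8% of unthinned cells with CYR61 and 8.84% to 15.7% without. In thinned neutrophil-like cells the share was 2.11%, against 2.72% in macrophage-like cells, and no difference between the groups is read from these shares.

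Mrc1 averaged 407 ± 154 CPM with CYR61 and 402 ± 130 CPM without (SD, n = 4 each). It had 556, 518, 240 and 314 CPM in CYR61 replicates 1 to 4, against 342, 392, 586 and 289 CPM in control replicates 1 to 4. The groups overlapped over nearly their whole range. The log2 fold change was 0.05 with SE 0.29 and an interval of -0.58 to 0.68. Within the earlier date stamp it was 0.68, and both CYR61 libraries were above both controls. Within the later one it was -0.68, with control replicate 3 highest and CYR61 replicate 4 above control replicate 4. Thinned shares were 8.89% to 20.8% with CYR61 and 12.7% to 21.6% without, and unthinned shares were 24.2% to 52.7% with CYR61 and 30.8% to 45.2% without. The share in thinned neutrophil-like cells was 10.5%, against 16.8% in macrophage-like cells.

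Cd163 was near the limit of detection. It had 21, 9, 0 and 0 UMIs in CYR61 replicates 1 to 4, against 2, 3, 5 and 0 UMIs in control replicates 1 to 4. In CYR61 replicate 1, 17 of the 21 UMIs came from 1 cell. The libraries at 0 allow up to 2.61 and 0.802 CPM in CYR61 replicates 3 and 4 and up to 2.99 CPM in control replicate 4, and shares of up to 0.601%, 0.282% and 0.769% of their cells. Cd163 was detected in 23 of 9196 cells, did not pass the filter on low counts, and a difference between the groups was not detectable at this depth.

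**Figure D2:**
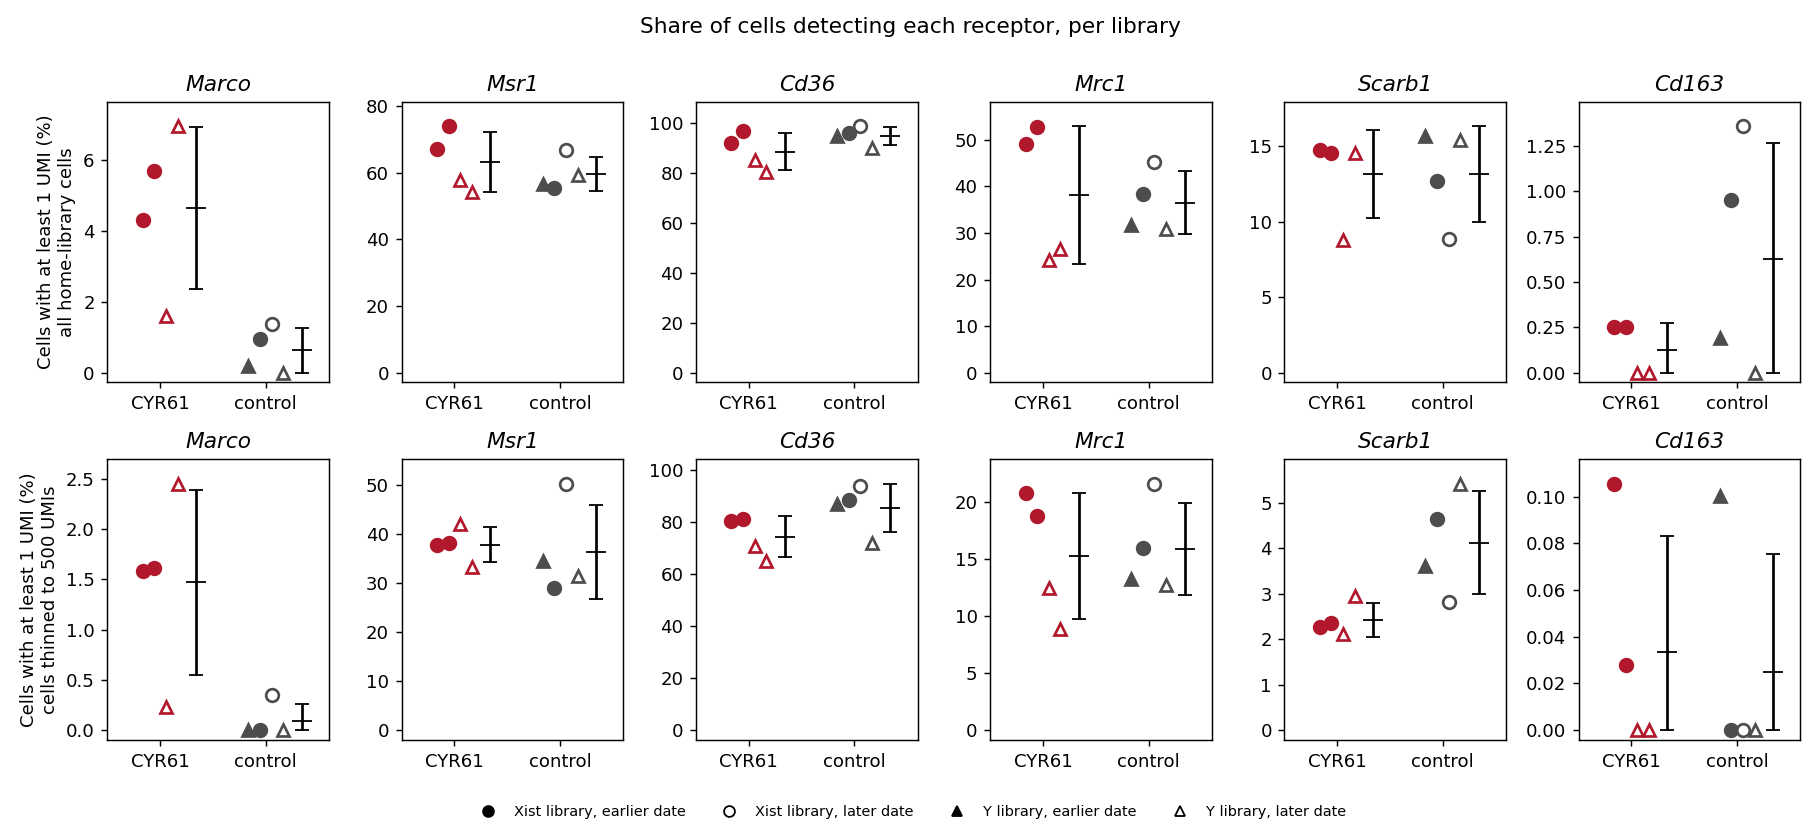
Percent of cells with at least 1 UMI of each receptor, 1 point per library, with CYR61 left and control right; the upper row uses all home-library cells and the lower row cells thinned to 500 UMIs, bars show mean ± SD (n = 4, cut at 0) and symbols mark the Xist or Y-linked RNA and the date stamp. Cd36 was found in 80.2% to 98.6% of cells per library, and Marco and Cd163 in under 7% of cells in every library.

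In the fit over all genes, 121 of 10422 genes had an adjusted p under 0.05 (edgeR quasi-likelihood test, Benjamini-Hochberg), 117 higher and 4 lower with CYR61. The called genes were 1.16% of those tested, and 2.87% of genes had every CYR61 library above every control library, as Marco had. The receptors were chosen by this contrast, so nothing is read from these shares for them. Of the 6 receptors 5 passed the filter on low counts. The log2 fold change of Marco was 3.17 to 4.85 with each library left out in turn, 3.71 within the earlier and 4.23 within the later date stamp.

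Related genes were grouped by function. Of 23 other scavenger receptors 10 were tested, and 1 rose: Cxcl16, a membrane-bound chemokine that also binds oxidised lipoprotein, at 138 ± 46.3 CPM with CYR61 and 44.7 ± 12.5 CPM without (SD, n = 4 each; log2 fold change 1.65, SE 0.27, adjusted p = 0.00644 by edgeR). Of 20 myeloid C-type lectins 14 were tested, and 1 rose: Clec4a1, at 118 ± 12.0 CPM with CYR61 and 59.6 ± 16.6 CPM without (SD, n = 4 each; 2.01-fold, adjusted p = 0.0352 by edgeR). Both had every CYR61 library above every control library. Medians of the tested genes were 0.30 for the scavenger list and 0.24 for the lectins, beside -0.02 for all genes.

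No gene was called among 15 tested genes of apoptotic-cell uptake, 17 of lipid uptake and storage, 10 of haem handling, 7 of alternative activation and 13 macrophage regulators. At an unadjusted p under 0.05 these lists held 3, 1, 1, 1 and 1 genes. Their median log2 fold changes were -0.10, 0.12, -0.03, -0.11 and 0.17. In contrast to these lists, 24 of 24 type I interferon response genes rose with CYR61, with a median log2 fold change of 3.58. That response was known from earlier results of these libraries and is given as a scale for the receptors.

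**Figure D3:**
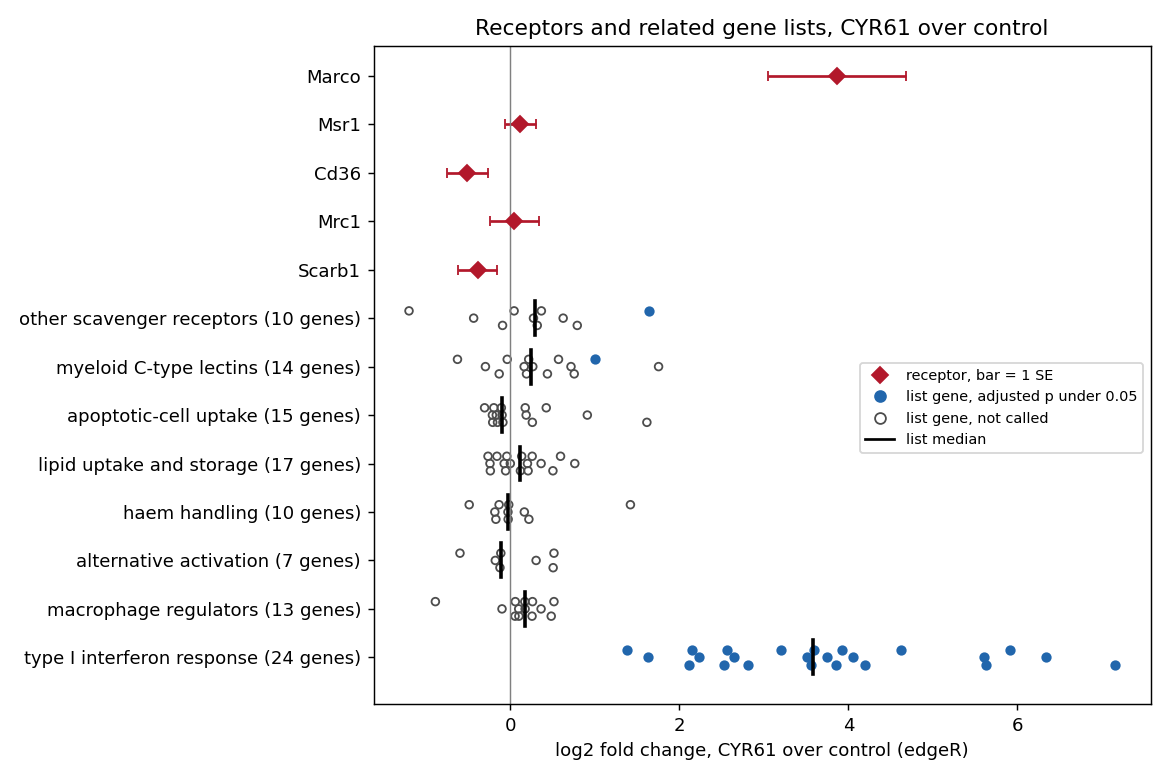
Log2 fold change of CYR61 over control for the 5 receptors past the filter on low counts (diamonds, bar = 1 SE) and for genes of each related list (circles, filled where the edgeR adjusted p was under 0.05; vertical line = list median). Marco, at 3.86, lay within the range of the interferon response genes, 1.38 to 7.16, and the other 4 receptors between -0.51 and 0.12.

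The date stamp was a contrast the choice of genes had not used. Between the later and the earlier date stamp, with the agent as a further term, 2 of 10422 genes were called (0.0192%), and none was a receptor. Marco averaged 22.4 ± 35.5 CPM in later and 16.6 ± 15.1 CPM in earlier libraries (SD, n = 4 each), and Mrc1 357 ± 156 CPM in later and 452 ± 101 CPM in earlier libraries. Adjusted p-values of the 5 receptors in this edgeR fit were 0.684 to 0.842. Without control replicate 3 the Mrc1 difference was -0.68 (edgeR, adjusted p = 0.0453). In that setting 694 of 11652 genes were called (5.96%), so the Mrc1 call stands beside a broad difference. Control replicate 3 was the only later library with Xist, so without it the date stamp and Xist or Y-linked RNA largely coincide. In all 8 libraries, with Xist or Y-linked RNA as a further term, the Mrc1 date difference was 0.05.

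The split by Xist or Y-linked RNA, noticed in the data and not a group of the study, moved with Mrc1. In libraries with Xist, Mrc1 was at 556 and 518 CPM (CYR61 replicates 1 and 2) and 392 and 586 CPM (control replicates 2 and 3). In libraries with Y-linked RNA it was at 240 and 314 CPM (CYR61 replicates 3 and 4) and 342 and 289 CPM (control replicates 1 and 4). The sets did not overlap, with means of 513 ± 85.3 CPM in Xist libraries and 296 ± 43.1 CPM in Y libraries (SD, n = 4 each). The log2 difference was 0.79 with SE 0.16 (edgeR, adjusted p = 0.00464). It passed the threshold in each of 10 alternatives, among them the date stamp as a term and each library left out, with edgeR adjusted p-values of 0.00101 to 0.0225. In the barcodes listed in no other library, Xist libraries had 394 to 584 CPM and Y libraries 231 to 396 CPM, so 1 Y library reached into the Xist range.

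Cd36 averaged 5024 ± 1425 CPM in Xist libraries and 3392 ± 902 CPM in Y libraries (SD, n = 4 each), with overlap at control replicate 1. Its log2 difference of 0.55 with SE 0.15 was called (edgeR, adjusted p = 0.0235), and the call was lost with the date stamp as a term (adjusted p = 0.0517) or without CYR61 replicate 1, 2 or 4 or control replicate 3 or 4 (adjusted p = 0.0587 to 0.0848). The difference was 0.59 with the date stamp as a term and 0.42 to 0.57 without those libraries. Msr1, Scarb1 and Marco were not called, with log2 differences of 0.20, -0.44 and 0.08. Without CYR61 replicate 4 the Marco difference was 2.25 (edgeR, adjusted p = 0.0309), in a setting where 1043 of 9312 genes were called (11.2%). The split moved many genes: 1598 of 10422 were called (15.3%), 805 of them higher in Xist libraries (7.72%). Non-overlapping sets, higher in Xist libraries, were found for 10.5% of genes. The 2 called receptors of 5 stand beside this broad difference. Within the CYR61 libraries the split and the date stamp coincide and cannot be told apart.

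**Figure D4:**
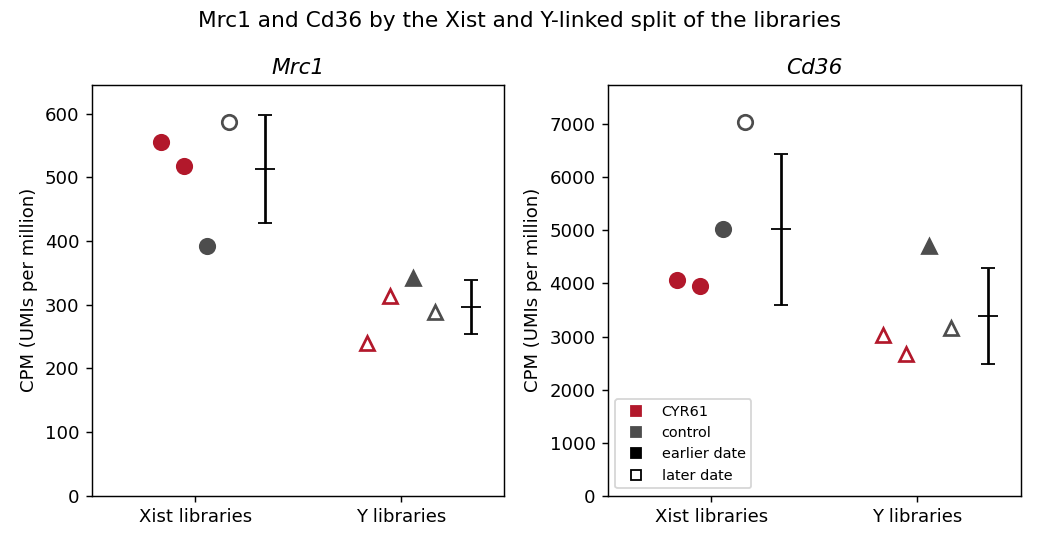
Mrc1 and Cd36 CPM in libraries with Xist (left) and with Y-linked RNA (right), 1 point per library, red for CYR61 and grey for control, filled for the earlier date stamp; bars show mean ± SD (n = 4). The 4 Xist libraries had 392 to 586 CPM of Mrc1 and the 4 Y libraries 240 to 342 CPM, while Cd36 overlapped.

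Inside libraries, receptor levels were compared between cells with and without genes of a state, each cell thinned to 500 UMIs. None of 18 differences in cycling, C1q or MHC class II cells passed an adjusted p of 0.05 (exact two-sided sign-flip permutation test over libraries), and 1 had an unadjusted p under 0.05. With 18 tests, a single difference at 0.0156, the smallest exact p of 7 libraries, could not pass the adjustment, so little could be shown here. The difference with the lowest p was Cd36, at 37.8 ± 12.7 UMIs per 10000 in cells with C1q RNA and 45.8 ± 18.4 in cells without (SD, n = 7 libraries), lower in 6 of 7 libraries (exact permutation p = 0.0312, adjusted p = 0.563). In cycling cells Cd36 was at 38.3 ± 8.88 UMIs per 10000, against 44.2 ± 6.56 in the rest, lower in 4 of 4 libraries, where the smallest exact permutation p is 0.125. MHC class II cells could be compared in 2 libraries, which cannot go below an exact p of 0.5, and fewer than 2 libraries had enough cells with monocyte genes.

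In the CYR61 libraries, cells with interferon response RNA and cells without it were set side by side with no test. Cd36 was at 31.5 ± 7.13 UMIs per 10000 in interferon-positive and 33.6 ± 8.08 in interferon-negative cells (SD, n = 4 libraries). It was lower in all 4, but in CYR61 replicate 3 the values were nearly equal. They were 30.2 and 30.3, the latter from 59 UMIs in 39 cells. Msr1 was at 10.4 ± 1.34 in interferon-positive and 8.91 ± 1.54 in interferon-negative cells, higher in 3 of 4. Its largest gap was in CYR61 replicate 3, 12.2 against 7.18, the latter from 14 UMIs in 39 cells. In CYR61 replicates 1, 2 and 4 the differences were 0.345, -0.185 and 0.863. Marco was at 0.375 ± 0.229 in interferon-positive and 0.356 ± 0.294 in interferon-negative cells, higher in 2 of 4. The interferon-negative cells of CYR61 replicates 1 to 4 held 10, 17, 0 and 3 Marco UMIs.

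Across 5218 cells thinned to 1000 UMIs, the gene most like Cd36 was Mmp12, an elastase of macrophages. Its median Pearson r over 8 libraries was 0.31 (range 0.15 to 0.55). Lpl, which frees fatty acids from lipoproteins, followed with 0.28 (0.16 to 0.40) and the lysosomal protease Ctsl with 0.21 (0.13 to 0.39), among 1609 genes whose median r with Cd36 was near 0. The closest genes to Msr1 were Lpl (0.13), Cd36 (0.11) and Atp6v0d2 (0.11), to Mrc1 Mocs2, Matr3 and Canx (each 0.08) and to Scarb1 Eif5 (0.08), Rcbtb2 (0.06) and Map7d1 (0.06), values too low in sparse counts to be read as a relation. Marco and Cd163 were in under 5% of these cells and were not compared. Cells of a library share its depth and preparation, so these are descriptions.

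Pairs of receptors in the same cell were counted against the number that independence within libraries gives. Cd36 was found in 93.0% of the thinned cells, so ratios with Cd36 lie near 1 whatever the cells do. Msr1 and Cd36 were found together in 3089 of the thinned cells, 1.02 times that number. For Cd36 and Mrc1 the ratio was 1.0 in 1550 cells, and for Msr1 and Mrc1 also 1.0 in 1045 cells. Marco was found with Cd36 in 102 cells (1.02 times) and with Mrc1 in 38 cells (1.05 times), and Mrc1 with Scarb1 in 97 cells (1.11 times). The ratio of Mrc1 with Scarb1 was above 1 in each of the 3 libraries with enough cells to compare, at most 1.52. Independence gives 87.2 cells for that pair against the 97 found, a gap about the size of counting error. No relation is read from it. Variance over mean among the thinned cells of a library was 1.51 to 2.17 for Cd36, 1.04 to 1.38 for Msr1, 1.07 to 1.52 for Mrc1 and 0.927 to 1.25 for Scarb1, where random sampling alone gives 1. Marco reached 5.01 in CYR61 replicate 4, the library with the cell of 132 UMIs.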

How the data were processed

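The deposited tables hold counts of UMIs per gene and barcode made by the authors; the submitters' processing notes name the build mm10, and aligner, counter and cell calling were not given in the sources used here. Members, gene lists and tests were chosen with earlier results of these data known, and the split by Xist or Y-linked RNA after seeing the data.

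Barcodes needed 300 genes and at most 20% mitochondrial UMIs and were kept in the library of their date stamp with most UMIs. Scrublet marked 46 of 12848 (0.358%), under the 0.5% at which it counts as having worked, so doublets were left in. Cells were clustered in scanpy 1.11.5 (2000 variable genes, 30 principal components, 15 neighbours, Leiden resolution 0.5, 11 clusters). Names needed at least 3 markers, enriched for other types and only detected for macrophage- and monocyte-like cells. Library sums were tested in edgeR 4.0.16 (R 4.3.3) with TMM, filterByExpr and the agent as sole term, checked on simulated data; DESeq2 1.42.0 was an alternative. States were gated at 2 UMIs against 0 with at least 20 cells on either side, and p-values adjusted over all differences. Likeness used genes in at least 10% of cells, named by the 3 highest median r. From each list up to 4 called genes per direction were named. Intervals for pooled ratios and limits from 3 counts cover counting error only. Promoter letters were chosen, and 2 of the 5 shortened, after seeing the data. Same-numbered libraries correlated at -0.20, 0.32, -0.09 and 0.32, which does not settle whether the numbers pair them. The value of 1 marker gene is not reported here.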

Additional observations from a re-analysis of the deposited data

Results flagged for a closer look

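Scarb1 was detected in 8.82% of cells in CYR61 replicate 3, far below the 14.5% to 14.8% of the other CYR61 libraries. Median depth was 789 UMIs per cell in CYR61 replicate 3 and 804 in CYR61 replicate 4, which had a Scarb1 UMI in 14.6% of cells. Summed over cells, CYR61 replicate 3 had 1149043 UMIs in 499 cells and CYR61 replicate 4 had 3739904 UMIs in 1065 cells. The part of depth in this share was not tested. After thinning the share in CYR61 replicate 3 was 2.11%, beside 2.27% to 2.96% in the other CYR61 libraries. It was the 1 result flagged among 24 sets of 4 libraries examined, and chance alone flags about 1 in 20.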

How the results depend on the processing

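For CYR61 against control, 121 genes were called, and 0 with all kept barcodes, 183 with DESeq2, 239 with no gene filter and 231 with the Xist or Y-linked split as a term. Leaving out a library gave 74 to 127. With a replicate block, 112 genes were called, 106 of them also without it, and the Marco log2 fold change was 3.70, beside 3.86 without it. It was 3.89 with at most 10% mitochondrial UMIs and 1.51 with all kept barcodes. With a minimum of 10 CPM, or in barcodes listed in no other library, Marco did not pass the filter and was not tested. The log2 fold change of Mrc1 was 0.68 within the earlier and -0.68 within the later date stamp, and the cause was not tested. Over 24 alternatives Cd36 was at -0.87 to -0.15 and Scarb1 at -0.53 to -0.18. Between date stamps, 2 genes were called, and 0 with all kept barcodes, the split as a term or no agent term, 141 with DESeq2, 304 with no gene filter and 0 to 694 leaving out a library. For Xist against Y libraries, 1598 genes were called, 898 with the date stamp as a term and 760 to 1656 leaving out a library. The settings that used barcodes listed in no other library or left out the cell highest in Marco, and the Xist split with its alternatives, were added after seeing the data. Marco and Cd163 are limited by depth.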

Other observations

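A group of 18 cells, all from CYR61 libraries, was led by Vcam1, Kcna2 and Epb41l3. It had Mrc1 at 1080 CPM, beside 466 CPM over all 9196 cells, and a median depth of 6050 UMIs per cell, beside 1186. An Mrc1 UMI was found in 18 of 18 cells, and after thinning to 500 UMIs in 50% of them, beside 17.8% of all cells. The group held the cell with 17 Cd163 UMIs, and its Marco and Cd36 levels were 90.0 and 1890 CPM. Another group of 21 cells, 20 of them from control libraries, had Cd36 at 8351 CPM with a UMI in 21 of 21 cells. It had no Marco UMI, which at a median of 1136 UMIs per cell is too shallow to be read as absence. Cells were grouped on 2000 variable genes, from which the receptors were not held out, so these values are a description.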
